A study of Mus musculus with 9 samples.

Results

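The core circadian clock genes were followed here in mouse kidney: the activators Arntl (also called Bmal1), Clock and Npas2, the repressors Cry1, Cry2, Per1, Per2 and Per3, and the nuclear receptors Nr1d1 (REV-ERB alpha) and Nr1d2 (REV-ERB beta). They were picked by gene symbol, and all 10 were found among the 23420 genes of the deposited expression table. RNA sequencing had been done on a cortex piece of about 50 mg from each of 9 male C57/BL6 mice on a chow diet under 12 h of light and 12 h of dark. The Fasted group (4 mice) went without food for 16 h before death, and the Fed group (5 mice) ate freely. Age is not given in the labels, and neither is the clock hour at which each kidney was taken, so fasting and hour of collection cannot be told apart in any group difference below. Each library comes from 1 mouse and is called by its group and a number that only names it.

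The clock runs as a feedback loop of transcription and translation that turns about once a day. ARNTL pairs with CLOCK or with its relative NPAS2 and switches on the Per, Cry and Nr1d genes through E-box elements in DNA. PER and CRY proteins return to the nucleus and block that pair, while the NR1D proteins repress Arntl, Npas2, Clock and Cry1 in a further loop in which ROR proteins act as activators on the same elements. In rodent kidney the loop drives daily rhythms of sodium transport and of metabolism, and Arntl transcripts peak at the opposite time of day from those of Nr1d1, Per3 and Dbp.

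The elements named above can be read in the DNA around the start sites of these genes. RefSeq windows on GRCm38.p6, from 250 bases before to 50 bases after a start site, were available for 9 of the 10 genes (13 windows), and Per2 was not among them. The E-box (CACGTG, where ARNTL and CLOCK bind) was found in 2 of the 13 windows, against 7.17% of all 32544 windows. The D-box (TTATGTAA, bound by DBP, TEF, HLF and NFIL3) was in 1 window, against 0.931% of all. The core element of the NR1D and ROR receptors (AGGTCA) was in 4 windows, against 16.2% of all, and the cAMP response element (TGACGTCA) was in 0 windows, against 1.80% of all. Both strands were searched, no matches overlapped, and a match describes these letters only. The windows of Cry1, Per1, Per3 and Nr1d2 and a short stretch of Arntl are shown because they hold the matched elements, in capitals. The transcripts of Cry1, Per3, Nr1d2 and Arntl ran with or against each other across the mice, and that of Per1 did not pass with any of them, as described below. The first 4 are the 250 bases before the start site, and TGACCT in Per1 is AGGTCA on the other strand.
Cry1: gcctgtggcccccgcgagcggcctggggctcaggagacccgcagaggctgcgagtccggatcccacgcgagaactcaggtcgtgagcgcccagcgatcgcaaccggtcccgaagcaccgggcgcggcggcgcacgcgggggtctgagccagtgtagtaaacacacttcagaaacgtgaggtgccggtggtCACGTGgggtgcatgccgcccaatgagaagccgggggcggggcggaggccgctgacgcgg
Per1: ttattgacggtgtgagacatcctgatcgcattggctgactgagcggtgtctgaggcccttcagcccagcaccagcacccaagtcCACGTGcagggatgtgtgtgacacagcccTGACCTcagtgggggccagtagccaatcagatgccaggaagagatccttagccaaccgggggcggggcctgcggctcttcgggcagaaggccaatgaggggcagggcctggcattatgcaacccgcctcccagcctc
Per3: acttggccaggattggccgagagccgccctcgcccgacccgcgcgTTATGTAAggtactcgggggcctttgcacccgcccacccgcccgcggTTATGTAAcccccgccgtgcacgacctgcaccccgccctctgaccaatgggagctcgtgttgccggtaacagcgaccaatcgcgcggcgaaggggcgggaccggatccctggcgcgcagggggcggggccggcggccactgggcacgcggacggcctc
Nr1d2: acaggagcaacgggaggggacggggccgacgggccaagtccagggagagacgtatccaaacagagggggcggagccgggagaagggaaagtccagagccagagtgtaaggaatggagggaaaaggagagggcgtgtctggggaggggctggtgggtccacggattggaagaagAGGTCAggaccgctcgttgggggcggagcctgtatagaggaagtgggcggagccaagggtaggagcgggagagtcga
Arntl: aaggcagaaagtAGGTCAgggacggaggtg
The Cry1 stretch is chr10:85185055-85185304 on the minus strand, and its E-box begins 60 bases before the start site. Per1 (chr11:69098699-69098948, plus strand) has an E-box that begins 166 bases before the start and an NR1D/ROR core that begins 137 bases before it. The Per3 stretch (chr4:151044666-151044915, minus strand) holds D-boxes that begin 205 and 158 bases before the start. In Nr1d2 (chr14:18239107-18239356, minus strand) the NR1D/ROR core begins 77 bases before the start, and in Arntl (chr7:113207530-113207559, plus strand) it begins 31 bases after it. The remaining match was an NR1D/ROR core that begins 119 bases before a start site of Clock.

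Recovered reads per library lay between 18902645 and 27186745 in the Fasted group and between 19638174 and 32469467 in the Fed group. The ribosomal RNA entry Rn45s took 2.36% of counts in Fasted 1 and 5.53% in Fed 3, against 0.513% to 1.38% in the other 7 libraries. The kidney cortex label was checked with marker genes. The 2 genes listed as inner medulla markers, Aqp1 and Slc14a2, summed to 19055 to 23411 in the Fasted group and 20162 to 28271.5 in the Fed group. Nearly all of that sum was Aqp1, at 18484.5 to 21785 in the Fasted group and 19806 to 27120 in the Fed group. The sum is therefore no measure of medulla by itself. Neither gene was called. Slc14a2 ranged from 311 (Fasted 3) to 1626 (Fasted 1) and from 356 (Fed 3) to 1264 (Fed 1). Whether the pieces held uneven amounts of medulla was not tested. The 3 endothelial markers gave 1 call upward and 1 downward, Fasted over Fed. The 3 distal convoluted tubule markers gave 1 upward. The summed level of 6 proximal tubule markers was 366290 to 424973 in the Fasted group and 418562 to 593777 in the Fed group, and 1 of the 6 was called lower in the Fasted group. The summed level of 5 hepatocyte markers ranged from 4144 to 10661 in the Fasted group and from 2039 to 14533 in the Fed group, with 1 of the 5 called higher in the Fasted group. That of 6 adipocyte markers was 981 to 1570 in the Fasted group and 1017 to 2439 in the Fed group. Nearly all of that sum was Fabp4 and Car3. Adipoq (0 to 2.79), Lep (0 to 0.744) and Cfd (0.921 to 21.3) averaged too low to be tested. Of the 3 tested, Fabp4 and Plin1 were called higher in the Fasted group. Plin1 was at 70.7 in Fasted 2 and at 0 to 1.84 in the Fed group, so it was tested only through its Fasted values. Car3 ran the other way without being called, at 205 to 460 in the Fasted group and 245 to 1877 in the Fed group. The part of these cell types in the results below was not tested. The red cell genes Hba-a1 and Hbb-b1 and the adrenal gene Cyp11b1 were listed at 0 in all 9 libraries. The other red cell gene, Alas2, was at 249 to 556 over the libraries. Of the other adrenal genes, Star was at 174 to 308, Cyp11a1 at 0 to 2.79 and Cyp21a1 at 0 to 0.889. Why some genes stand at 0 was not tested, so these values do not show that blood or adrenal tissue was absent. In whole tissue, fewer cells of a type and less RNA per cell cannot be told apart.

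None of the 10 clock genes was called changed between Fasted and Fed kidneys. Values are counts divided by the authors' size factor for each library (normalized counts), and changes are on the log2(value + 1) scale as Fasted over Fed, each with its standard error (SE). The Benjamini-Hochberg adjustment in limma ran over the 15098 genes that averaged 10 or more normalized counts. All 10 clock genes passed that filter, with at least 50 reads in every library. At an adjusted p under 0.05, 0 of the 10 were called, 0 higher and 0 lower. Of all genes tested 11% were called (5.72% higher and 5.25% lower), a share at which 10 genes would give few calls. A clock gene that misses the threshold with this few mice is not shown to be unchanged. Before adjustment, 2 of the 10 (Clock and Cry1) had a p under 0.05, against 26.8% of all genes. The Fasted and Fed values of a gene did not overlap in 0 of the 10, against 14.3% of all genes. On the recovered reads edgeR's quasi-likelihood test also called 0 of the 10, beside 11% of all genes, and DESeq2 called 0 of the 10, beside 16.8%. The median log2 change of the 10 was 0.22, beside 0.000886 over all genes tested, with 7 estimates above 0 and 3 below.

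**Figure D1:**
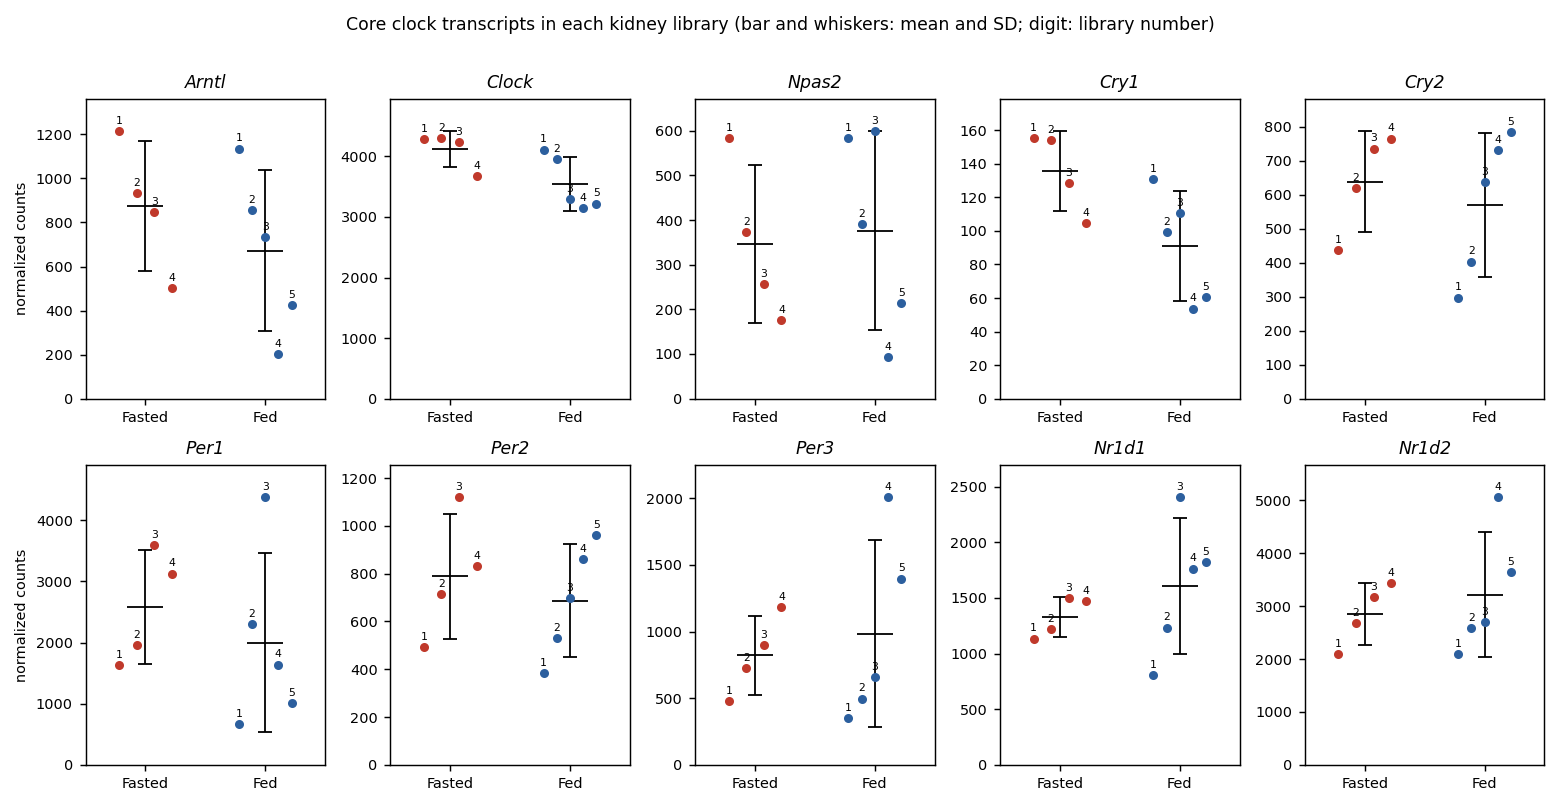
Normalized counts (vertical axis, from 0) of the 10 clock genes in each kidney library, Fasted mice in red at left and Fed mice in blue at right of each panel; each point is 1 mouse, the digit is its library number, and the bar and whiskers are the group mean and SD. The groups overlap in every panel, and in Arntl, Npas2 and Cry1 the libraries Fed 4 and Fed 5 lie among the lowest while in Per3 they lie highest.

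Among the activators, Arntl (chr7:113207465-113314126, plus strand; GENCODE M21 positions on GRCm38 here and below) had 1217, 933, 846 and 501 normalized counts in Fasted 1 to 4, against 1136, 857, 735, 202 and 424 in Fed 1 to 5. It encodes the partner that every activating pair of the loop needs. The groups overlapped, with Fed 4 the lowest of all 9 libraries and Fasted 1 the highest. The log2 change was 0.54 (SE 0.44, adjusted p = 0.468 from limma).

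Npas2 (chr1:39193731-39363236, plus strand), which can stand in for Clock, had 583, 373, 256 and 175 normalized counts in Fasted 1 to 4, against 583, 391, 600, 92.3 and 214 in Fed 1 to 5. Both groups held a library near the top of the range, and Fed 4 was again the lowest. The estimate was close to no change, 0.04 with a wide error (SE 0.53, adjusted p = 0.975 from limma). Clock (chr5:76209868-76304792, minus strand), the histone acetyltransferase of the pair, had 4282, 4301, 4232 and 3671 normalized counts in Fasted 1 to 4, against 4112, 3958, 3294, 3149 and 3222 in Fed 1 to 5. Its range was narrow: the highest library exceeded the lowest by 1.37-fold, against 6.03-fold for Arntl and 6.50-fold for Npas2. Of the Fasted libraries 3 lay above every Fed library, and Fasted 4 lay within the Fed range. The log2 change of Clock was 0.22 (SE 0.09), with a p of 0.0377 before adjustment and 0.158 after it in limma.

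Cry1 (chr10:85131700-85185064, minus strand) encodes the stronger of the CRY repressors. It had the lowest mean of the 10 genes per kilobase of exon, at 40.6 ± 7.2 normalized counts per kb in Fasted kidneys and 27.3 ± 9.9 in Fed kidneys (SD, n = 4 and 5). Its normalized counts were 155, 154, 129 and 105 in Fasted 1 to 4, against 131, 99.4, 111, 53.7 and 60.7 in Fed 1 to 5. Fed 2, Fed 4 and Fed 5 were below every Fasted library, whereas Fed 1 and Fed 3 lay within the Fasted range. The log2 change of 0.63 (SE 0.26) was the largest estimate among the 10 genes, at a limma p of 0.0313 before adjustment and 0.141 after it.

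Cry2 (chr2:92403646-92434043, minus strand), the other cryptochrome, had 436, 618, 736 and 765 normalized counts in Fasted 1 to 4, against 297, 403, 637, 731 and 784 in Fed 1 to 5. The lowest and the highest libraries were both Fed, so the Fasted values lay inside the Fed range. Its log2 change was 0.22 (SE 0.28, adjusted p = 0.651 from limma). The antisense gene D930015M05Rik shares 295 exon bases with Cry2 (4.67% of the exon bases of Cry2) and had a log2 change of 0.38 (limma adjusted p = 0.302). Whether strand was used in counting is not given in the sources used here, so reads of the shared bases cannot be told apart.

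The Period genes, whose proteins carry the CRY repressors into the nucleus, differed from each other in their patterns. Per1 (chr11:69095217-69109960, plus strand), which also answers quickly to glucocorticoids and cAMP, had 1630, 1963, 3599 and 3127 normalized counts in Fasted 1 to 4, against 663, 2297, 4382, 1639 and 1015 in Fed 1 to 5. The Fed group held both the lowest and the highest library, which differed by 6.61-fold, the widest range of the 10 genes. The log2 change of Per1 was 0.60 (SE 0.46, adjusted p = 0.445 from limma).

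Per2 (chr1:91415982-91459324, minus strand) had 492, 716, 1121 and 831 normalized counts in Fasted 1 to 4, against 384, 531, 697, 862 and 963 in Fed 1 to 5. Fasted 3 was the highest and Fed 1 the lowest, and the rest were interleaved. The log2 change was 0.21 (SE 0.28, adjusted p = 0.666 from limma). Per3 (chr4:151003652-151044665, minus strand), a Period gene that the loop can run without, had 480, 722, 901 and 1184 normalized counts in Fasted 1 to 4, against 351, 497, 656, 2009 and 1397 in Fed 1 to 5. Fed 4 and Fed 5 were the highest of all libraries and Fed 1 the lowest, so the Fed group spanned the Fasted one on both sides. The log2 change of Per3 was -0.03 (SE 0.46, adjusted p = 0.975 from limma).

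Nr1d1 (chr11:98767932-98775333, minus strand), a heme-binding repressor of Arntl, had 1134, 1220, 1495 and 1472 normalized counts in Fasted 1 to 4, against 805, 1233, 2407, 1764 and 1822 in Fed 1 to 5. The 4 Fasted libraries lay close together, and 3 Fed libraries lay above all of them, with Fed 3 the highest. The log2 change was -0.19 (SE 0.26, adjusted p = 0.686 from limma). Nr1d1 shares 263 exon bases (8.55% of its own) with Thra on the opposite strand, the gene of a thyroid hormone receptor. Thra had a log2 change of 0.02 (adjusted p = 0.897 from limma), and the reads of the shared bases cannot be told apart.

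Nr1d2 (chr14:18204054-18239127, minus strand), which overlaps in function with Nr1d1, had 2099, 2681, 3164 and 3436 normalized counts in Fasted 1 to 4, against 2097, 2587, 2699, 5064 and 3649 in Fed 1 to 5. As for Per3, Fed 4 and Fed 5 were the highest libraries. The log2 change was -0.13 (SE 0.23, adjusted p = 0.758 from limma). Per kilobase of exon Nr1d2 had the highest mean of the 10 genes, at 526 ± 109 normalized counts per kb in Fasted kidneys and 595 ± 217 in Fed kidneys (SD, n = 4 and 5). Nr1d1 followed in the Fed group at 522 ± 199, and Per1 (458 ± 166) and Nr1d1 (432 ± 59) followed in the Fasted group. Within each group these means did not differ beyond their spread.

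In the authors' deposited table, whose log2 fold changes come from their own fit, the adjusted p-values of the 10 genes lay between 0.112 for Cry1 and 0.930 for Npas2. The deposited log2 fold change was 0.43 for Cry1 and 0.20 for Clock, Fasted over Fed.

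The clock genes differed far more between mice of the same group than most kidney genes did. The SD of log2 values within groups lay between the 96.7th and the 99.5th percentile of the 11645 genes averaging 100 or more normalized counts for 9 of the 10 genes, and at the 55.4th percentile for Clock. For Npas2 this SD was 0.98, for Per1 0.87, for Per3 0.87 and for Arntl 0.82, beside a median of 0.14 over those genes. Group membership held 12.0% of the variance of Arntl, 0.0412% of that of Per3 and 39.8% of that of Clock, beside a median of 19.8% over all genes tested.

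The fed mice carried titles in separate number ranges, 18 to 22 for Fed 1 to 3 and 32 to 34 for Fed 4 and 5 (Fasted mice were 23 to 29), and the clock genes differed by which of them the 4 Fasted mice were set against. Set against Fed 4 and 5 only, Cry1 was higher in the Fasted group, with a log2 change of 1.22 (SE 0.20, adjusted p = 0.0196 from limma). It was then the single clock gene called, where 2.36% of all genes were called. Against the same pair of libraries the log2 change of Arntl was 1.51 (SE 0.36, adjusted p = 0.0763) and that of Per3 was -1.10 (SE 0.31, adjusted p = 0.116). Before adjustment all clock genes but Cry2 and Per2 had a limma p under 0.05 against that pair. The share of all genes with such a p was not counted for either subset. Set against Fed 1 to 3 only, 0 of the 10 genes were called by limma, beside 11.9% of all genes, although Per3 had a p under 0.05 before adjustment. The log2 change of Arntl was then -0.10 (SE 0.27), that of Npas2 -0.71 (SE 0.35) and that of Per3 0.68 (SE 0.29), each opposite in sign to its value against Fed 4 and 5. Nothing in the labels says what the title numbers stand for, and whether the subsets of Fed mice differ from each other was not tested.

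**Figure D2:**
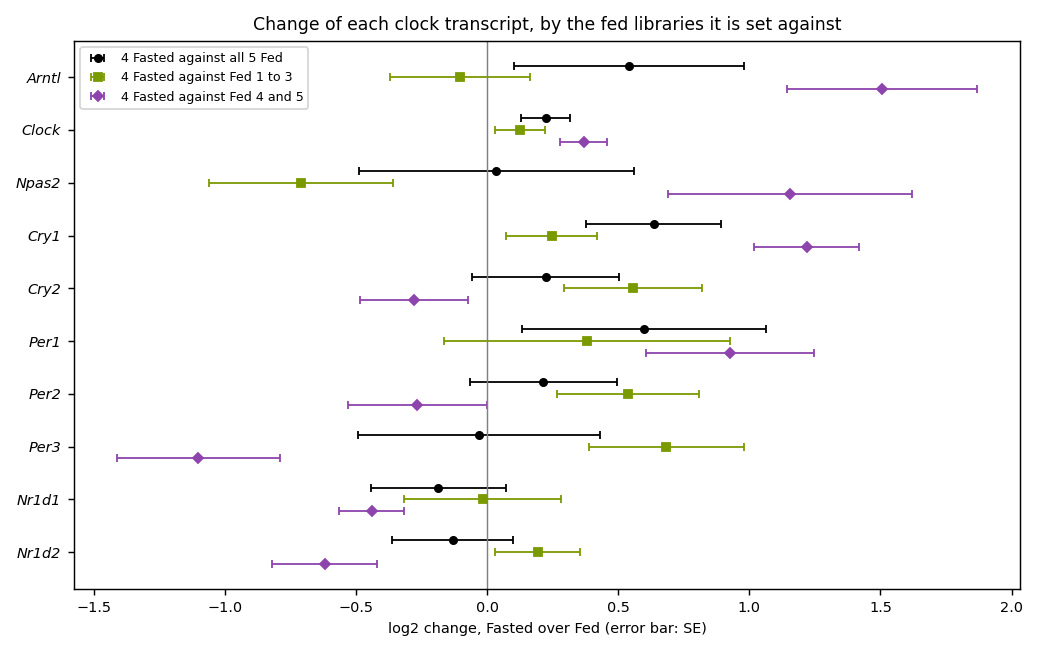
Log2 change, Fasted over Fed (horizontal axis), of the 10 clock genes with its SE as error bar, for the 4 Fasted mice against all 5 Fed mice (black circles), against Fed 1 to 3 (green squares) and against Fed 4 and 5 (purple diamonds). For Arntl the black circle at 0.54 lies between -0.10 and 1.51, and for Per3 the circle at -0.03 lies between 0.68 and -1.10.

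Across the 9 libraries many clock transcripts were high and low together or against each other, whichever group the mouse came from. All 45 pairs of the 10 genes were correlated on log2 values, and 19 had a Benjamini-Hochberg adjusted p under 0.05 by an exact permutation test of the pairings (two-sided), 12 positive and 7 negative. By Spearman's rho 16 pairs passed, 10 positive and 6 negative. After the mean of each group was subtracted, which leaves the differences between mice of 1 group, 22 pairs passed, 12 positive and 10 negative. Leaving out Fed 4 gave 12 pairs and leaving out Fed 5 gave 11. All values of r share the same 9 libraries and their size factors, and each group has too few mice for an r of its own.

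Arntl ran opposite to Nr1d2, the repressor gene, with r = -0.96 and rho = -0.95 (exact permutation p = 9.09e-05 and 0.000353, adjusted 0.0020 and 0.0079). Fed 4 had the least Arntl and the most Nr1d2, and Fasted 1 and Fed 1 had the most Arntl and the least Nr1d2. Without Fed 4 and Fed 5, the libraries farthest from the median of Arntl, r was -0.88 (exact permutation p = 0.0089), and with group means subtracted it was -0.97 (adjusted exact permutation p = 0.0052). Per3 gave the same picture against Arntl, with r = -0.92 and rho = -0.90 (exact permutation p = 0.000289 and 0.0020, adjusted 0.0026 and 0.0169). Without Fed 4 and Fed 5 that r was -0.82 (exact permutation p = 0.0236).

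On the one side, Arntl ran with the repressor gene Cry1, which NR1D proteins repress as they do Arntl, at r = 0.91 and rho = 0.88 (exact permutation p = 0.000515 and 0.0031, adjusted 0.0033 and 0.0169). Arntl also ran with Npas2 at r = 0.90 and rho = 0.72 (exact permutation p = 0.0016 and 0.0369, adjusted 0.0072 and 0.0754) and with Clock at r = 0.83 and rho = 0.87 (exact permutation p = 0.0038 and 0.0045, adjusted 0.0154 and 0.0169). These 3 relations did not keep a p under 0.05 by exact permutation without Fed 4 and Fed 5 together. Without that pair of libraries r was 0.69 for Cry1, 0.74 for Npas2 and 0.65 for Clock (exact permutation p = 0.0770, 0.0552 and 0.123). With group means subtracted r was 0.94 for Cry1, 0.95 for Npas2 and 0.84 for Clock (adjusted exact permutation p = 0.0059, 0.0085 and 0.0339).

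Npas2, like Arntl, ran against Nr1d2 (r = -0.95, rho = -0.80, exact permutation p = 0.000276 and 0.0138, adjusted 0.0026 and 0.0444) and against Per3 (r = -0.92, rho = -0.87, exact permutation p = 0.000449 and 0.0045, adjusted 0.0033 and 0.0169). Left without Fasted 4 and Fed 4, the libraries farthest from the median of Npas2, r was -0.89 for Nr1d2 and -0.85 for Per3 (exact permutation p = 0.0123 and 0.0141).

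On the other side, Per3 and Nr1d2 had the tightest relation of the 45, r = 0.97 and rho = 0.98 (exact permutation p = 8.27e-06 and 4.96e-05, adjusted 0.000372 and 0.0022). Without Fed 1 and Fed 4, the libraries farthest from the median of Per3, r was 0.95 (exact permutation p = 0.00079). Cry2 ran with Per2 at r = 0.95 and rho = 0.88 (exact permutation p = 0.000196 and 0.0031, adjusted 0.0026 and 0.0169), and without Fed 1 and Fed 2, the farthest for Cry2, at r = 0.91 (exact permutation p = 0.0058). Both members of that pair lay lowest in Fed 1, while Per2 peaked in Fasted 3 and Cry2 in Fed 5. Against Arntl, Cry2 did not pass by r (-0.65, adjusted exact permutation p = 0.0957) but passed by rho (-0.78, adjusted 0.0484) and with group means subtracted (r = -0.80, adjusted 0.0439). Per2 against Arntl did not pass by r (-0.59, adjusted exact permutation p = 0.148), by rho (-0.73, adjusted 0.0700) or with group means subtracted (r = -0.73, adjusted 0.0721), and passed without Fasted 3 (r = -0.78, adjusted 0.0408).

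The other 10 pairs that passed were Clock with Cry1 and Nr1d1, Cry1 with Npas2, Per3 and Nr1d2, Cry2 with Per3, Nr1d1 and Nr1d2, and Per2 with Per3 and Nr1d2, with r between 0.75 and 0.88 in size. Of these, 4 kept an exact permutation p under 0.05 without the 2 libraries farthest from the median of the first gene: Cry2 with Per3 (r = 0.81) and Nr1d2 (0.79), and Per2 with Per3 (0.90) and Nr1d2 (0.83). The other 6 did not: r was then 0.70 for Clock with Cry1, 0.59 for Npas2 with Cry1, -0.25 for Cry1 with Per3, -0.48 for Cry1 with Nr1d2 and 0.50 for Cry2 with Nr1d1 (exact permutation p between 0.0768 and 0.586). For Clock with Nr1d1 r was -0.76 over the 9 libraries and -0.75 without Fed 4 and Fed 5 (exact permutation p = 0.0601).

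Nr1d1 passed against Arntl by rho and not by r, and by r as well when Fed 3 was left out. Its r with Arntl was -0.58 (rho = -0.83, exact permutation p = 0.106 and 0.0083, adjusted 0.159 and 0.0286), and without Fed 3 it was -0.79 (adjusted exact permutation p = 0.0381). Without Fed 3 and Fasted 1 together it was -0.78 (adjusted exact permutation p = 0.0788). It did not pass with group means subtracted (r = -0.55, adjusted exact permutation p = 0.337). Without Fed 4 and Fed 5 it was -0.60 (exact permutation p = 0.146). Nr1d1 with Nr1d2 had r = 0.61 and rho = 0.78 (exact permutation p = 0.0790 and 0.0172, adjusted 0.132 and 0.0484). Without Fed 1 and Fed 3, the libraries farthest from the median of Nr1d1, r with Nr1d2 was 0.91 (exact permutation p = 0.0032). Fed 3, the library with the most Nr1d1 and Per1, is also the one with 5.53% of counts in Rn45s, and leaving it out gave 27 pairs past the threshold.

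Per1 stood apart over the 9 libraries: 0 of its 9 pairs passed, with r between -0.05 and 0.59. Against Arntl it had r = -0.02 and rho = -0.23 (exact permutation p = 0.967 and 0.552, adjusted 0.967 and 0.605). Without Fed 4 and Fed 5 that r was -0.68 (exact permutation p = 0.104). The closest partner of Per1 was Nr1d1 at r = 0.59 (rho = 0.48, exact permutation p = 0.0947 and 0.194, adjusted 0.148 and 0.256). That value rests on Fed 1 and Fed 3, without which r was -0.29 (exact permutation p = 0.528).

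**Figure D3:**
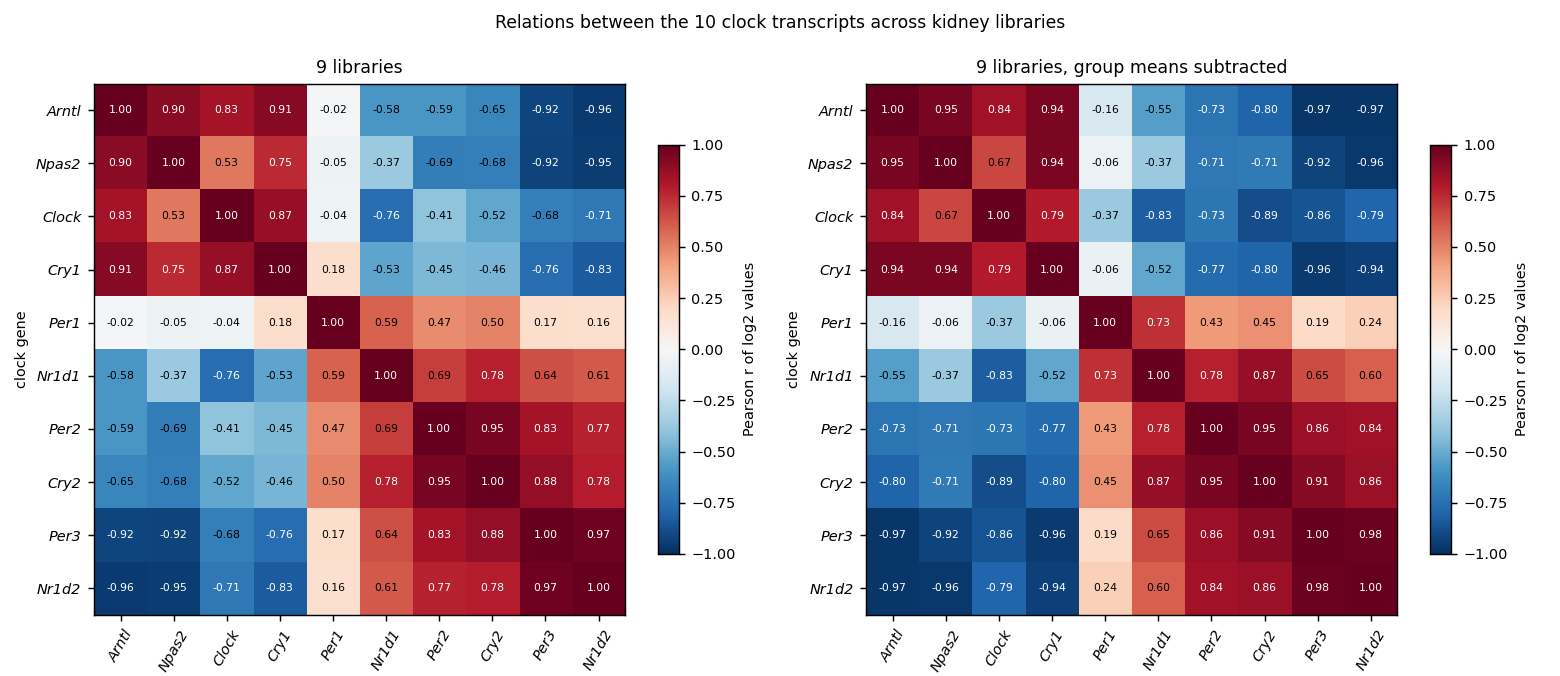
Pearson r (color scale from -1 in blue to 1 in red, value printed in each cell) for the 45 pairs of clock genes on log2 normalized counts, over 9 libraries at left and with the mean of each group subtracted at right; both axes list the genes in the same order. Arntl is at -0.96 with Nr1d2 and 0.91 with Cry1 at left and -0.97 and 0.94 at right, and the Per1 row at left lies between -0.05 and 0.59.

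**Figure D4:**
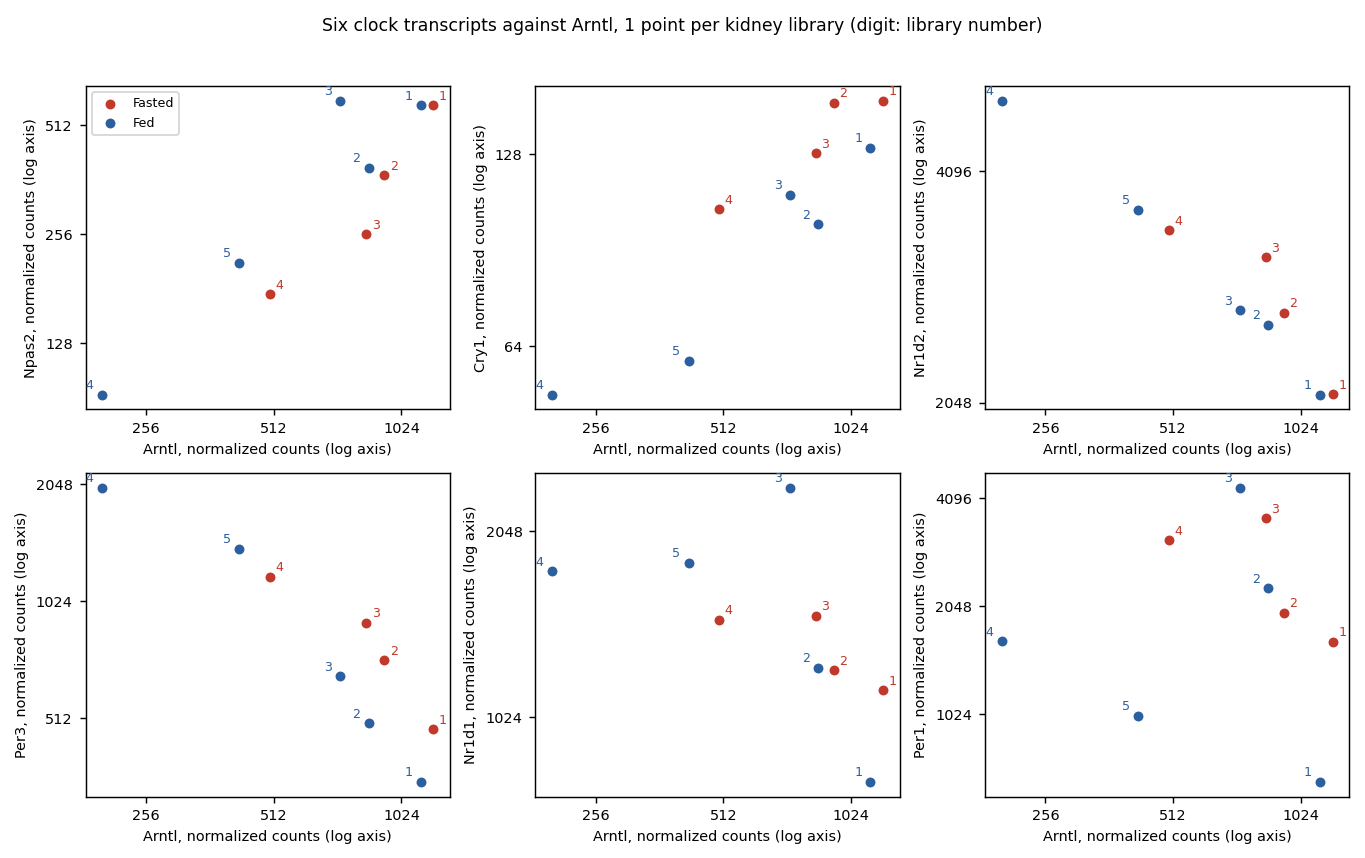
Normalized counts of Npas2, Cry1, Nr1d2, Per3, Nr1d1 and Per1 (vertical axes) against those of Arntl (horizontal axes), log axes, 1 point per library, Fasted in red and Fed in blue, with the library number beside the point. Fasted and Fed points lie along the same line for Nr1d2 (r = -0.96), while for Per1 (r = -0.02) no line is seen.

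Relations as tight as the closest ones of Arntl were rare in the table. Of the genes tested, 0.106% (16 genes) had an r with Arntl of at least 0.9 in size, and 4 of the 16 were clock genes of the loop (Npas2, Cry1, Per3 and Nr1d2). Weaker pairs that passed were less rare. An r with Clock at least as large in size as that of Nr1d1 was found for 1.90% of genes tested. For Cry1 and its r with Per3 that share was 1.31%. Among genes outside the 10 that averaged 100 or more normalized counts and bear a gene name (11006 genes ranked), the 5 with the highest r to Arntl over the 9 libraries included Ypel2 (0.94), Cdh13 (0.92), Nfil3 (0.92) and Ube2g2 (0.92). For Nr1d1 they were Vwce (0.96), Abl1 (0.92), Ppargc1b (0.92), Cnksr3 (0.92) and Angel1 (0.91). None of these 9 genes was called changed between the groups by limma, with adjusted p-values between 0.224 and 0.939. They were ranked by r and so carry no test of it.

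No shift of paralogues against each other was detected between the groups. A log2 ratio within 1 library does not depend on its size factor, and 6 ratios were compared by an exact permutation test over 126 arrangements of the libraries (two-sided, smallest possible p 0.0079). Of the 6 ratios 0 passed, with adjusted p-values of 0.833 to 0.897. Cry1 over Cry2 averaged -2.21 ± 0.60 in Fasted kidneys and -2.62 ± 1.10 in Fed kidneys (SD of log2 ratios, n = 4 and 5), a difference of 0.41 that is smaller than either spread. Per1 over Per3 averaged 1.65 ± 0.28 in Fasted kidneys and 1.02 ± 1.44 in Fed kidneys, with the Fed libraries reaching from -0.46 to 2.74. Nr1d1 over Nr1d2 averaged -1.08 ± 0.14 in Fasted kidneys and -1.03 ± 0.53 in Fed kidneys. A ratio that misses the threshold with this few mice does not show that the paralogues responded alike.

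Genes around the loop were examined in 4 lists, 46 genes in all, all of which were tested. Of the 46, 4 were called in limma, beside 11% of all genes tested. Of 12 loop partners and modifiers, 2 rose, 0 fell and 10 did not pass, with a median log2 change of -0.13. Rora, a gene of a receptor that activates Arntl, averaged 1027 ± 92 in Fasted kidneys and 834 ± 51 in Fed kidneys (SD, n = 4 and 5), a log2 change of 0.30 (SE 0.08, adjusted p = 0.0332 from limma). That call was lost in 10 of 18 alternative settings, 7 of them with a single library left out (Fasted 1, 2 or 3, or Fed 1, 2, 4 or 5; limma adjusted p up to 0.0982). Rorb, a relative of Rora, was low, at 33.4 ± 7.8 normalized counts in Fasted kidneys and 43.4 ± 7.3 in Fed kidneys, with a log2 change of -0.38 (SE 0.21, adjusted p = 0.264 from limma).

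Dbp, a D-box activator and E-box target, had 68.8, 357, 350 and 518 normalized counts in Fasted 1 to 4, against 83.4, 191, 283, 1802 and 1072 in Fed 1 to 5. It was highest in Fed 4 and Fed 5, where Per3 was highest too. The log2 change of Dbp was -0.58 (SE 0.86, adjusted p = 0.708 from limma). Over the libraries its r with Arntl was -0.92, that of the repressor gene Bhlhe41 was -0.90 and that of the D-box repressor gene Nfil3 was 0.92, whereas that of Bhlhe40 was -0.30 and that of the D-box activator gene Hlf was -0.55, given here as descriptions of 9 libraries with no test.

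Of 16 genes for phosphorylation and turnover of clock proteins, 1 rose, 0 fell and 15 did not pass, with a median log2 change of 0.03. Over all genes tested 11% were called. The gene that rose was Nampt, the rate-limiting enzyme of NAD salvage and itself a target of the clock. It had 6115, 7256, 7379 and 6356 normalized counts in Fasted 1 to 4, against 4153, 4469, 3864, 5411 and 4932 in Fed 1 to 5. The groups did not overlap, and the log2 change was 0.58 (SE 0.10, adjusted p = 0.0061 from limma). Against Fed 4 and 5 only it was 0.39 and not called (limma adjusted p = 0.106). Over the 9 libraries the r of Nampt was 0.02 with Arntl, -0.12 with Nr1d1 and 0.19 with Nr1d2, given with no test. Fbxw11, part of a ubiquitin ligase for PER proteins, had a log2 change of -0.22 (SE 0.08, adjusted p = 0.103), and the PER kinase gene Csnk1e one of 0.36 (SE 0.13, adjusted p = 0.113), neither called by limma.

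Of 9 chromatin and corepressor partners 0 rose and 0 fell in limma, with a median log2 change of 0.0082. Before adjustment 2 (Nono and Kdm5a) had a limma p under 0.05, against 26.8% of all genes tested. The 3 smallest p-values were those of Nono, an RNA-binding partner of PER, at 0.20 (SE 0.07, adjusted p = 0.0791), the histone demethylase gene Kdm5a at 0.14 (SE 0.05, adjusted p = 0.111) and the acetyltransferase gene Ep300 at -0.17 (SE 0.11, adjusted p = 0.326). Of 9 kidney genes known to be controlled by the clock, 0 rose, 1 fell and 8 did not pass, with a median log2 change of -0.05. Over all genes tested 11% were called, so 1 of 9 is near that share. The gene that fell was Slc9a3, the sodium-hydrogen exchanger NHE3 of the proximal tubule. It had 2222, 2170, 2404 and 2492 normalized counts in Fasted 1 to 4, against 2750, 2897, 3083, 3072 and 2728 in Fed 1 to 5. All Fasted libraries lay below all Fed libraries, and the log2 change was -0.32 (SE 0.07, adjusted p = 0.0117 from limma). The call was lost without Fed 3 and Fasted 1 together (-0.28, limma adjusted p = 0.0536) and against Fed 4 and 5 only (-0.32, limma adjusted p = 0.118). The summed proximal tubule markers of 3 Fasted libraries lay below those of every Fed library, and the sum in Fasted 3 exceeded that in Fed 5; their part in that change was not tested. The kinase gene Wnk4 was at -0.48 (SE 0.25, adjusted p = 0.254) and the sodium channel gene Scnn1a at -0.28 (SE 0.18, adjusted p = 0.352), neither called by limma.

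**Figure D5:**
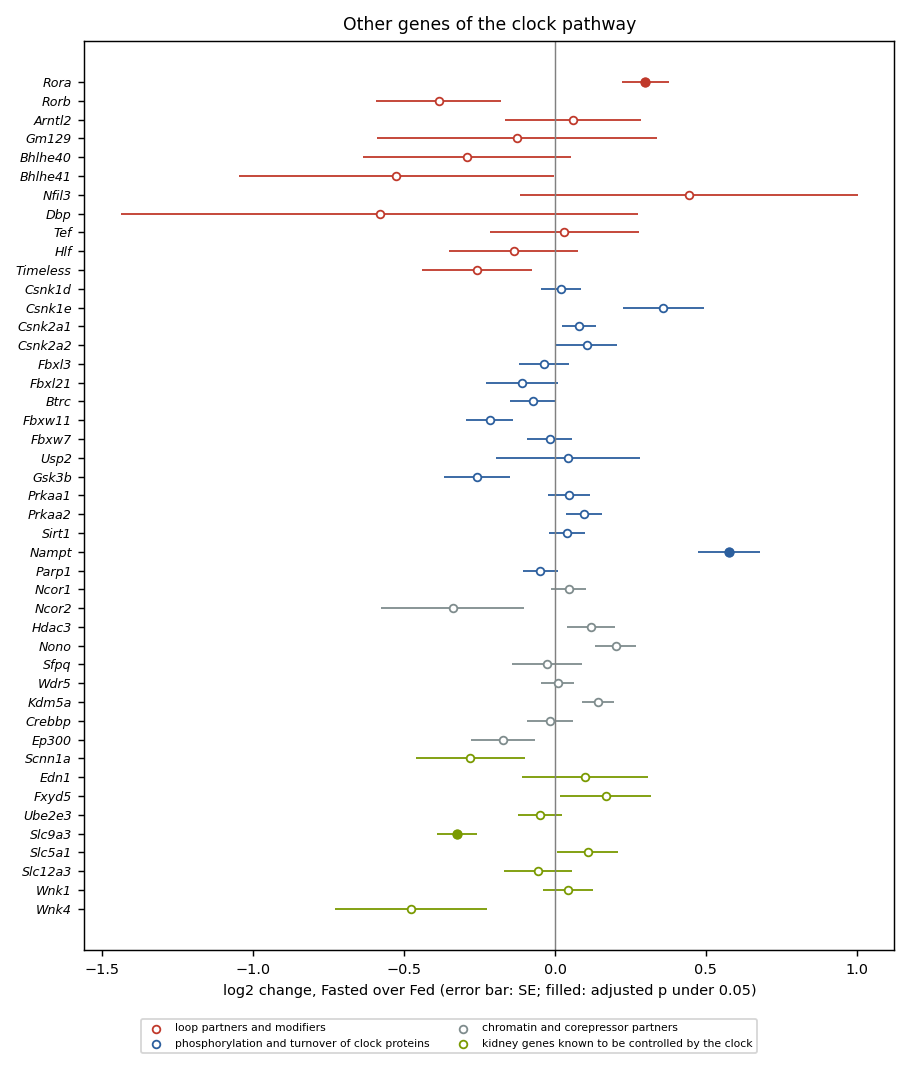
Log2 change, Fasted over Fed (horizontal axis), of 45 of the genes around the clock loop with SE as error bar, colored by list; filled points had an adjusted p under 0.05 in limma. The 3 filled points are Nampt at 0.58, Rora at 0.30 and Slc9a3 at -0.32, and the wide bars of Dbp (SE 0.86) and Nfil3 (SE 0.56) show the spread between mice.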

How the data were processed

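For each of the 9 libraries the authors deposited a signal per gene, namely its counts over that library's size factor. Divided by what 1 read is worth in its library, each of the 161194 values above 0 was a whole number to within 0.01, so reads were recovered. FastQC, TopHat2 2.0.9, HTSeq 0.9.1 and DESeq2 (version given as 3.5) are named per the submitters' processing notes, with the builds mm10 and hg19; the gene annotation, the strand setting and the role of hg19 are not given in the sources used here. The deposited log2 fold changes, standard errors, p-values and adjusted p-values are from the authors' own fit, and the deposited score column is not used here. No sample column was left unused (0). The labels make each library a separate mouse.

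The main test was limma 3.58.1 (R 4.3.3) with an intensity trend, two-sided, on log2(value + 1), over genes averaging 10 or more normalized counts, called at a Benjamini-Hochberg adjusted p under 0.05. Alternatives were a pseudocount of 10, no filter, TMM factors, the recovered reads in edgeR 4.0.16 and in DESeq2 1.42.0, subsets of libraries, and log2 Dbp as a covariate, which was added after seeing the data. The steps were tested on simulated data. Gene positions are from GENCODE M21 by Ensembl identifier (10 of 10 matched). Levels per kb divide by the summed exon length.

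The clock genes and the lists were chosen with earlier results of these data known. Named genes are the 10 clock genes, the called genes and 3 smallest p-values of each list, the 5 genes most like Arntl and the 5 most like Nr1d1 by r, genes overlapping a clock gene, and Rn45s. Some genes that this rule names are left out of the text and stay in the counts. Dbp, Bhlhe40, Bhlhe41 and Hlf were added after their values were seen.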

Additional observations from a re-analysis of the deposited data

Results flagged for a closer look

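In 42 groups of values searched, chance alone flags about 1 in 20. Clock had 3671 normalized counts in Fasted 4, far below the other 3 Fasted libraries, which lay between 4232 and 4301. The share of counts in the ribosomal RNA entry Rn45s was 2.36% in Fasted 1, against 0.622% to 0.784% in the other Fasted libraries. It was 5.53% in Fed 3, against 0.513% to 1.38% in the other Fed libraries. Fed 3 also had the highest Per1, Nr1d1 and Npas2 of the 9 libraries, and the part of Rn45s in those values was not tested.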

How the results depend on the processing

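Among all genes tested 1656 were called, and between 861 and 1956 with 1 library left out. Leaving out Fasted 4 gave 861, Fed 1 gave 1006, Fasted 3 gave 1062 and Fasted 1 gave 1082. Higher genes numbered 457 to 925 and lower genes 404 to 1031. Without Fed 3 and Fasted 1 together 1068 genes were called, 486 of them lower. Against Fed 4 and 5 only 357 were called (2.36% of all genes tested), 247 higher and 110 lower. Among them were 1 clock gene (Cry1) and 2 of the 46 genes around the loop. In every other setting 0 clock genes were called. DESeq2 called 2382 genes.

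Signs of uncalled estimates turned in several settings, and the cause was not tested. Against Fed 1 to 3 only, Arntl was at -0.10, Npas2 at -0.71, Per3 at 0.68 and Nr1d2 at 0.19. The ratio differences were then -0.31 for Cry1/Cry2, -0.16 for Per1/Per2, -0.30 for Per1/Per3 and -0.15 for Per2/Per3. Against Fed 4 and 5 only, Cry2 was at -0.28, Per2 at -0.27, Clock/Npas2 at -0.79 and Nr1d1/Nr1d2 at 0.18. Without Fed 3 and Fasted 1, Npas2 was at -0.020, Per3 at 0.13, Nr1d1 at 0.057 and Nr1d1/Nr1d2 at 0.10. Npas2 was at -0.12 in edgeR and at -0.12 in DESeq2. With log2 Dbp as a covariate, Npas2 was at -0.28, Per3 at 0.27 and Nr1d2 at 0.017. With 1 library left out, the log2 change ran from -0.39 to 0.32 for Npas2, from -0.33 to 0.30 for Per3 and from -0.27 to 0.049 for Nr1d2. The difference ran from -0.079 to 0.58 for Clock/Npas2 and from -0.18 to 0.16 for Nr1d1/Nr1d2.

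Pairs of clock genes that passed numbered 11 to 27 with 1 library left out (11 without Fed 5 and 12 without Fed 4). The r of Arntl with Per1 ran from -0.17 to 0.30, whereas that of Arntl with Nr1d2 ran from -0.99 to -0.92 and passed in all 12 settings by exact permutation. With 4 Fasted against 2 Fed libraries the exact test of a ratio cannot go below 0.0667. No paired analysis was possible because the labels give no replicate numbers that the groups share.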
